A study of Mus musculus with 16 samples.

Results

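The genes described here are the chromosome 4 neighbours of Zbtb17 in the mouse. They are the protein-coding genes whose annotated start lies between positions 139500000 and 142600000 of chromosome 4 on GRCm38, a window of 3.1 Mb, without Zbtb17 itself. Membership was set by position and took in 46 of 21474 protein-coding genes, out of 41214 gene rows in all. The window was chosen with earlier results of these data known. Zbtb17 lies inside this window, at chr4:141444654-141467930 on the forward strand.

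RNA was sequenced from 16 mice of the strain labelled C57Bl6, all bearing acute lymphoblastic leukaemia of T cells (T-ALL), with 2 mice in each of 8 groups. Mice labelled deltaPOZ expressed a Miz1 protein without its POZ domain, and Miz1 wt mice were their controls. ICN stands for leukaemia induced through Notch, p53 ko for a p53 null background, and the suffixes Lck and Vav divide the deltaPOZ mice. In the ICN p53 ko background the groups were deltaPOZ Lck, deltaPOZ Vav and Miz1 wt, all with both ICN and p53 loss. In the ICN p53 wt background they were again deltaPOZ Lck, deltaPOZ Vav and Miz1 wt, all with ICN and intact p53. In the noICN p53 ko background they were deltaPOZ Vav and Miz1 wt, all with p53 loss and leukaemia without induced ICN. The labels do not explain Lck and Vav, which as background are promoters often used to drive Cre in T cells and in all blood cells. For age, sex and the organ sampled the sources give nothing. Each library came from its own mouse, so every p-value measures the spread between mice.

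Zbtb17 encodes Miz1, a zinc finger transcription factor that binds DNA itself and, through its POZ domain, other Miz1 molecules and partner proteins. When a gene is altered in the germ line, the DNA on either side of it travels with the altered allele through breeding. Genes in that linked stretch can therefore differ between mutant and control animals for reasons of sequence, and the neighbours were compared by Miz1 status. No label says whether Miz1 wt mice share the linked DNA of deltaPOZ mice. If they do, the comparison cannot show such a difference. The neighbours include genes with roles in T-ALL biology: Spen encodes a corepressor that works with the Notch partner RBPJ, and Casp9 the initiator caspase of mitochondrial apoptosis.

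The window from 250 bases before to 50 bases after the annotated start is shown for Zbtb17 and for 3 neighbours on which the comparisons below turn. Spen lies closest to Zbtb17, Ddi2 was one of the genes whose ICN p53 wt libraries separated by Miz1 status, and Padi3 differed most between ICN and noICN leukaemias. Sequences are from RefSeq on GRCm38.p6 and run 5′ to 3′ on the strand of the gene, with capitals for the 50 bases from the start onward. The Zbtb17 window is chr4:141444423-141444722 on the forward strand, and the others lie on the reverse strand, with Spen at chr4:141538548-141538847, Ddi2 at chr4:141723370-141723669 and Padi3 at chr4:140810599-140810898.
Zbtb17: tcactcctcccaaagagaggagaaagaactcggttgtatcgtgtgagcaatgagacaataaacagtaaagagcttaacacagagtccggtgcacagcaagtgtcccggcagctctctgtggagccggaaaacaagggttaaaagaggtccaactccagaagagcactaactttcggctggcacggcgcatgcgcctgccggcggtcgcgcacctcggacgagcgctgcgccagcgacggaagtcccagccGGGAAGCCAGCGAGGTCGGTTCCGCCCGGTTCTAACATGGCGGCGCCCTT
Spen: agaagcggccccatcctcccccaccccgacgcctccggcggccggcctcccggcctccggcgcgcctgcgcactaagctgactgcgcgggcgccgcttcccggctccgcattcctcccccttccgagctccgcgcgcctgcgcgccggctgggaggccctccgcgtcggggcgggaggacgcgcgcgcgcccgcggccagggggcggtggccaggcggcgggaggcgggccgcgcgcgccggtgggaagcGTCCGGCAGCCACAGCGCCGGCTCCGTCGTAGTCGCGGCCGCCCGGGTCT
Ddi2: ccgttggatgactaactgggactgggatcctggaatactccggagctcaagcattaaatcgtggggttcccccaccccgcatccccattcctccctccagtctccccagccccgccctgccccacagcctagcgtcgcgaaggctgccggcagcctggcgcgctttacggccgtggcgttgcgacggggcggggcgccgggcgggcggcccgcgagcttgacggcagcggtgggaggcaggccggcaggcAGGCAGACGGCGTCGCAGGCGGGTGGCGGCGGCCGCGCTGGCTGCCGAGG
Padi3: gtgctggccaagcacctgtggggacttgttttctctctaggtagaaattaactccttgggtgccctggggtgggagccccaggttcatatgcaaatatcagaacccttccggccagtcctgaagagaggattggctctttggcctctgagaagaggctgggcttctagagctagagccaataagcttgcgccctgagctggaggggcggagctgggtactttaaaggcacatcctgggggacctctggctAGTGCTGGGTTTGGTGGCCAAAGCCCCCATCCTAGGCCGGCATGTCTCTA

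The Spen window was 81.7% G and C, that of Ddi2 72.7%, that of Zbtb17 59.0% and that of Padi3 56.7%. RefSeq windows were matched by symbol for 40 of the 46 neighbours and gave 47 windows. The letters ATCGAT, used for Miz1 binding sites and read on both strands, occurred in 0 of these 47 windows, against 303 of 32544 mouse windows of the same length, or 0.931%. A longer published Miz1 consensus occurred in 0 of 47 and in 1 of 32544. The search says only that these letters were absent from these windows.

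The libraries held 36463524 to 68523196 counts in genes. Of the 46 neighbours, 31 had enough counts to be tested among 17470 genes, and 15 did not. Levels are given as CPM, counts scaled per 1e6 reads in genes with TMM factors, and 16 of the 31 had a mean of 3 or more on the log2 scale and are called well-expressed below. Markers of T cells summed to between 1674 and 2336 CPM in ICN libraries and to between 2046 and 3419 CPM in noICN libraries, over 7 of 7 markers found. Neutrophil and erythroid markers separated ICN from noICN libraries, while sums of B cell markers and of macrophage and dendritic cell markers overlapped. The neutrophil sum was 49.6 to 8963 CPM in ICN libraries, against 0.330 to 1.44 CPM in noICN libraries. The erythroid sum, over 6 markers, was 2556 to 12140 CPM in ICN libraries, against 0.851 to 11.8 CPM in noICN libraries. In bulk RNA, fewer cells of a type and less RNA per cell cannot be told apart.

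Zbtb17 itself was measured in every library. In the ICN p53 ko background it had 63.3 and 47.0 CPM in deltaPOZ Lck, 44.2 and 51.8 CPM in deltaPOZ Vav, and 50.5 and 48.5 CPM in Miz1 wt mice. In the ICN p53 wt background it had 38.2 and 43.2 CPM in deltaPOZ Lck, 41.8 and 38.0 CPM in deltaPOZ Vav, and 51.8 and 42.9 CPM in Miz1 wt mice. In the noICN p53 ko background it had 56.9 and 87.5 CPM in deltaPOZ Vav, against 137.8 and 78.6 CPM in Miz1 wt mice. The groups overlapped in each background. Averaged over backgrounds the log2 change, deltaPOZ over Miz1 wt, was -0.25 (SE 0.15; edgeR quasi-likelihood test, Benjamini-Hochberg adjusted p = 0.9999). A count over the whole gene does not check for loss of the POZ domain, because the rest of the transcript is still counted, and exons were not analysed here.

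No neighbour was called for Miz1 status among the 31 that had enough counts to be tested, and the other 15 were not tested. In the average over the 3 backgrounds 0 of 31 passed an adjusted p of 0.05 by edgeR's quasi-likelihood test, where 0.0172% of all genes did, and 0 of 31 had an unadjusted p under 0.05, where 4.92% of all genes did. DESeq2 also called 0, beside 0.727% of all genes. The median log2 change of the 31 was -0.08, beside -0.0004 over all genes tested and -0.04 over the rest of chromosome 4, and 20 of the 31 had a negative value. The values ran from -0.56 for Padi3 to 1.11 for Kazn.

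The width of the intervals differed with level. For 15 of the 16 well-expressed neighbours the 95% interval of the averaged change lay within a 2-fold change in either direction, and for 11 it lay within 1.5-fold. The exception at 2-fold was Arhgef10l, which encodes a guanine nucleotide exchange factor, at -0.45 (interval -1.68 to 0.78). Over all 31 tested, 20 intervals lay within 2-fold and 11 within 1.5-fold. For the less abundant neighbours larger changes were therefore within the error.

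**Figure D1:**
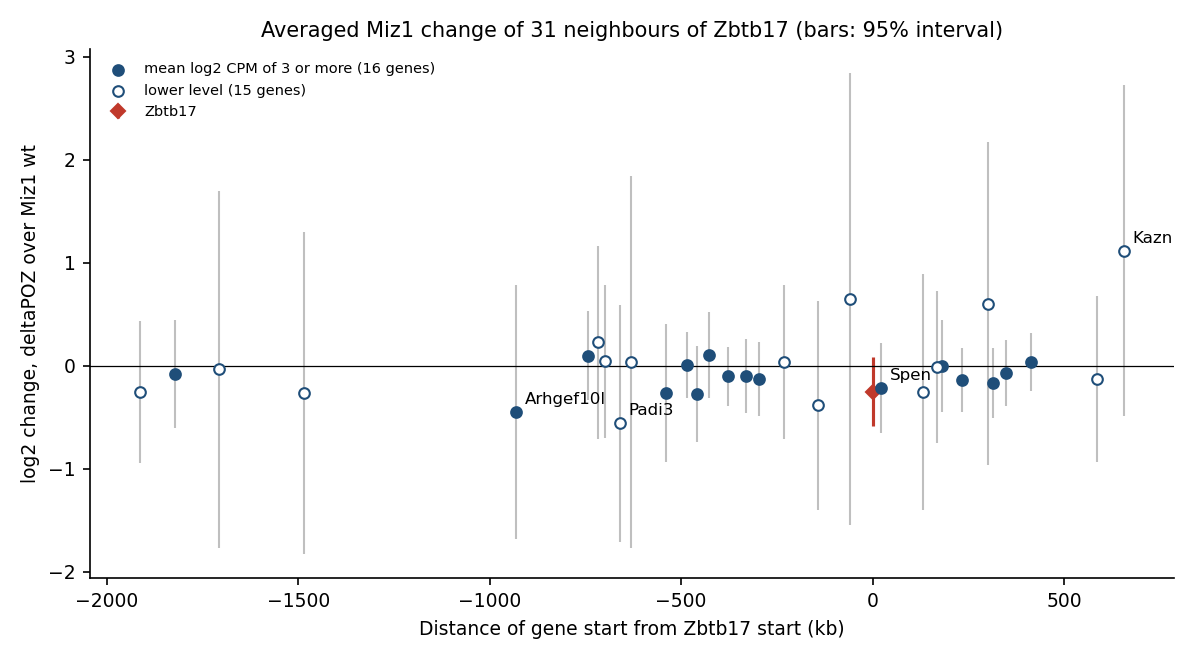
Averaged log2 change, deltaPOZ over Miz1 wt, of the 31 tested neighbours (y axis) by the distance of each gene's start from that of Zbtb17 in kb (x axis). Bars are 95% intervals, filled points the 16 well-expressed neighbours, open points the 15 at lower level, and the diamond is Zbtb17; each neighbour's interval includes 0.

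Within a background the counts were as low. In ICN p53 ko mice 0 of 31 neighbours were called, where 0.00572% of all genes were, and 0 had an unadjusted p under 0.05 beside 3.78% of all genes. In ICN p53 wt mice 0 of 31 were called, where 0% of all genes were, and 0 had an unadjusted p under 0.05 beside 1.87%. In noICN p53 ko mice 0 of 31 were called, again beside 0% of all genes, and 1 had an unadjusted p under 0.05 beside 7.68%. DESeq2 called 0 neighbours in each of these. It gave an adjusted p to 29 in ICN p53 ko, 31 in ICN p53 wt and 27 in noICN p53 ko mice. Of all genes it called 0.715% in ICN p53 ko, 0.0859% in ICN p53 wt and 1.45% in noICN p53 ko mice. The median log2 change was -0.09 in ICN p53 ko, -0.06 in ICN p53 wt and -0.11 in noICN p53 ko mice, beside -0.01, 0.00 and 0.01 over all genes. Over the rest of chromosome 4 the median was -0.07, 0.01 and -0.05 in the same order. In the adjoining window of equal width at lower coordinates it was -0.06, 0.11 and -0.09. In that at higher coordinates it was -0.19, 0.19 and 0.05. Without the filter on low counts, which left 45 neighbours tested, Arhgef10l was called in ICN p53 ko mice, or 2.22% of the 45 beside 1.54% of all genes. In that fit Kazn and Igsf21 were called in noICN p53 ko mice, or 4.44% of the 45 beside 2.48% of all genes. These within-background changes enter the average, so they are not separate from it. B cell markers moved with Miz1 status: over 7 markers they summed to 102 to 359 CPM in deltaPOZ, against 4.27 to 19.8 CPM in Miz1 wt mice of the ICN p53 ko background. In noICN p53 ko mice the sum was 11.7 to 22.8 CPM with deltaPOZ, against 2.80 to 3.63 CPM with Miz1 wt, and in ICN p53 wt mice it was 125.5 to 271 CPM with deltaPOZ, against 49.8 to 237 CPM with Miz1 wt. With B cell and neutrophil scores in the model 0 of 31 neighbours were called in the average and in each background. That fit also called 0% of all genes in each, so its count does not set the neighbours apart.

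A test of whether the deltaPOZ change itself differed between backgrounds also called 0 of 31 neighbours, both for p53 ko against p53 wt among ICN mice and for noICN against ICN among p53 ko mice. All genes were called at 0% in both, and 0 neighbours had an unadjusted p under 0.05 in either, beside 2.6% and 6.63% of all genes.

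The groups rarely separated. In ICN p53 ko mice 0 of 31 neighbours had all deltaPOZ libraries above or all below the Miz1 wt libraries, beside 8.9% of all genes. In ICN p53 wt mice 3 did, all lower in deltaPOZ, which was 9.68% of the 31 beside 11.4% of all genes in either direction and 5.95% in that one. In noICN p53 ko mice 2 did, Padi6 with higher and Fblim1 with lower deltaPOZ values, beside 26% of all genes. No neighbour separated in the same direction in all 3 backgrounds, beside 0.195% of all genes.

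Spen, transcribed toward Zbtb17 from the other side, shares 41 exonic bases with it on the opposite strand. No source states the strand setting of the counter, so reads from that overlap cannot be told apart. Spen had 138 and 84.5 CPM in deltaPOZ Lck, 88.0 and 64.8 CPM in deltaPOZ Vav, and 93.4 and 174 CPM in Miz1 wt mice of the ICN p53 ko background. In ICN p53 wt mice it had 98.2 and 144 CPM in deltaPOZ Lck, 109 and 74.8 CPM in deltaPOZ Vav, and 115 and 96.6 CPM in Miz1 wt. In noICN p53 ko mice it had 68.7 and 99.0 CPM in deltaPOZ Vav, against 110.5 and 70.0 CPM in Miz1 wt. Replicates differed by as much as the groups, and the groups overlapped throughout. The averaged log2 change was -0.22 (SE 0.20, interval -0.66 to 0.22), and the lowest within a background was -0.54 (SE 0.32) in ICN p53 ko mice.

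The other neighbours within 250 kb of Zbtb17 numbered 15, of which 8 were tested. Fbxo42, an F-box protein of ubiquitin ligases, had an averaged log2 change of -0.13 (interval -0.49 to 0.23). Ddi2, a protease that activates the transcription factor Nrf1, had -0.14 (interval -0.45 to 0.17). Plekhm2, an adaptor that links lysosomes to kinesin, had -0.0027 (interval -0.45 to 0.45). These are the well-expressed genes of that stretch besides Spen, and each interval lay within a 1.5-fold change in either direction. Other tested genes there had low levels and wide errors, among them Rsg1, a small GTPase, 0.03 (SE 0.34), Epha2, an ephrin receptor, -0.38 (SE 0.46), Fblim1, a filamin-binding adaptor, -0.26 (SE 0.52), and Tmem82, -0.02 (SE 0.34). Over the 9 tested genes of this stretch, the median was -0.13.

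Ddi2, Dnajc16 and Rsg1 were the neighbours whose ICN p53 wt groups did not overlap. Ddi2 had 155.5, 147.6, 174 and 135 CPM in deltaPOZ mice, against 180.5 and 177.5 CPM in Miz1 wt mice. Dnajc16, which carries the J domain of Hsp70 partners, had 30.6, 27.6, 27.8 and 25.2 CPM in deltaPOZ mice, against 33.8 and 33.6 CPM in Miz1 wt mice. Rsg1 had 0.434, 0.610, 0.917 and 0.716 CPM in deltaPOZ mice, against 0.990 and 1.06 CPM in Miz1 wt mice. The gaps were small, and the log2 changes were -0.23 (SE 0.23) for Ddi2, -0.28 (SE 0.25) for Dnajc16 and -0.65 (SE 0.55) for Rsg1. In ICN p53 ko mice Ddi2 had 219, 147.5, 162 and 165 CPM with deltaPOZ, against 157.5 and 188 CPM with Miz1 wt, and the groups overlapped.

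**Figure D2:**
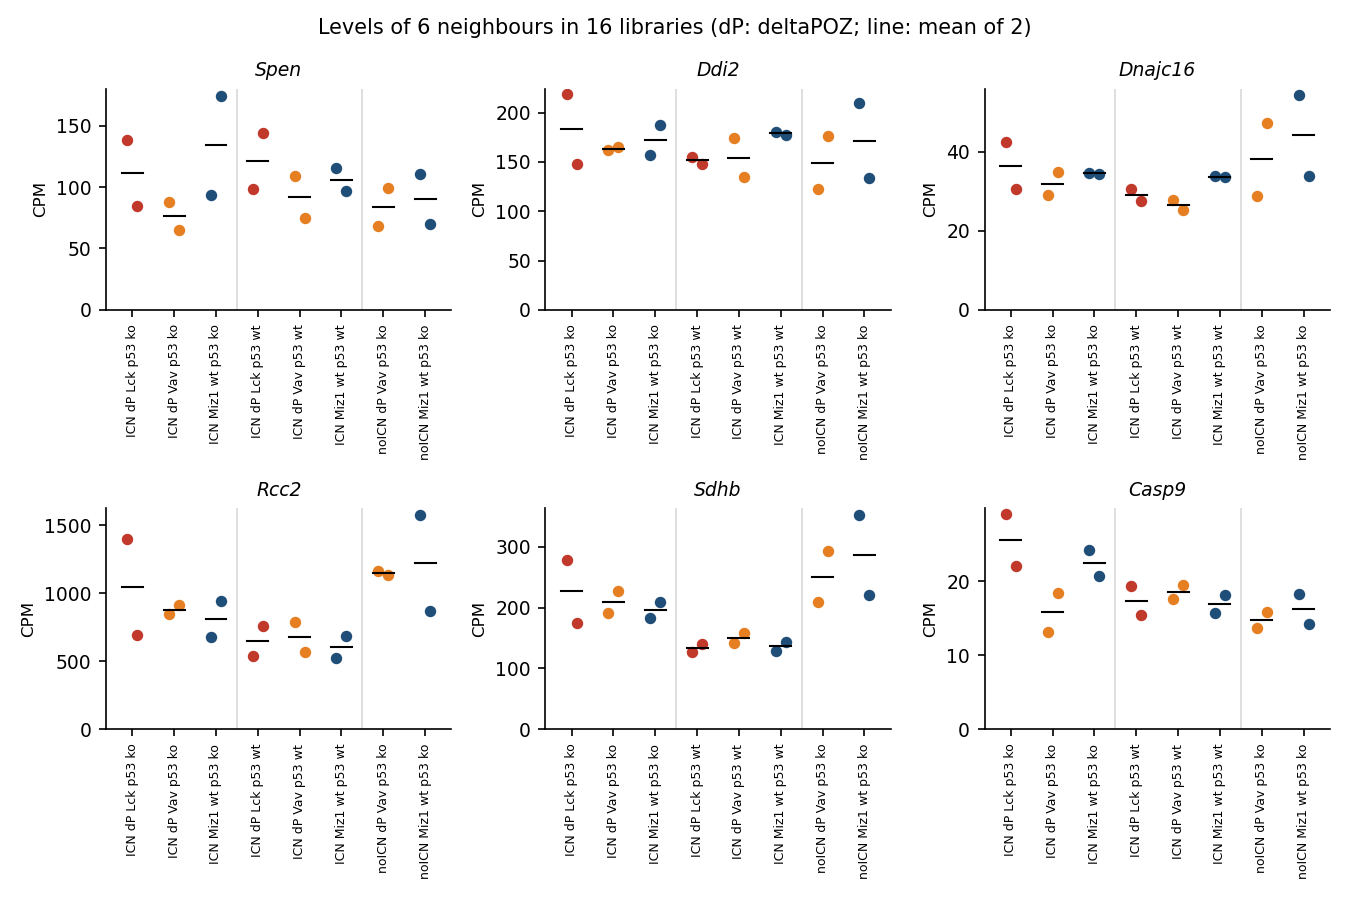
CPM (y axis, from 0) of Spen, Ddi2, Dnajc16, Rcc2, Sdhb and Casp9 in 16 libraries by group (x axis). Points are mice and lines the mean of 2; red is deltaPOZ Lck, orange deltaPOZ Vav and blue Miz1 wt, and Ddi2 and Dnajc16 separate by Miz1 status in ICN p53 wt mice and overlap in the other backgrounds.

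Kazn, which encodes a desmosome-associated scaffold, was the one neighbour with an unadjusted p under 0.05 for Miz1 status. In noICN p53 ko mice it had 0.0458 and 9.06 CPM in deltaPOZ Vav, against 0.275 and 0.617 CPM in Miz1 wt. The deltaPOZ mice lay on either side of the controls, so 1 library carried the difference. The log2 change was 3.33 (SE 1.46, unadjusted p = 0.0433, edgeR adjusted p = 0.636). Without that library the averaged change of Kazn was -1.07 in place of 1.11, and in a fit without the filter on low counts Kazn in noICN mice had an adjusted p of 0.00244. The same library held 3.02 CPM of Igsf21, a synaptic adhesion protein that reached at most 0.0808 CPM in the other 15 libraries.

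By role, no list had a called member for Miz1 status with the filter on low counts. The 6 tested genes for ubiquitin, protein folding and vesicles all had negative averaged changes, with a median of -0.14, where 20 of the 31 neighbours and 8747 of 17470 genes were negative. The farthest from 0 was -0.28 (SE 0.21) for Atp13a2, a lysosomal polyamine transporter. The common sign depended on the setting: Plekhm2, at -0.0027, was positive with RLE factors, DESeq2 and both chromosome 4 scalings, and Fbxo42 was 0.029 with B cell and neutrophil scores in the model. The 7 tested genes for actin, the centrosome and related signalling had 3 positive and 4 negative values. The 3 chromatin genes were Spen, Rcc2 at 0.10 (SE 0.20) and Pax7, a muscle stem cell factor found at no more than 0.868 CPM. Of the metabolic enzymes, Sdhb, the iron-sulfur subunit of succinate dehydrogenase, had 0.01 (SE 0.15) and Aldh4a1, of proline breakdown, -0.08 (SE 0.24). Casp9 had -0.07 (SE 0.15), and its exons overlap those of Cela2a and Ctrc on the opposite strand. The 5 peptidylarginine deiminase genes had 3 positive and 2 negative values.

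The neighbours spanned a wide range of level. Per kb of exon, Rcc2, a regulator of chromosome condensation and mitosis, was the most abundant with a mean of 211.5 CPM per kb. Sdhb followed with 88.6, then Szrd1 with 47.2, Necap2, a clathrin adaptor partner, with 27.4 and Efhd2, a calcium-binding actin regulator, with 26.97 CPM per kb. The 15 genes that were not tested include genes of other organs, such as the pancreatic proteases Cela2a and Ctrc, the heat shock protein of heart muscle Hspb7 and the sweet taste receptor Tas1r2. Apart from Igsf21 they reached at most 0.382 CPM in any library, and Rsc1a1 had no count at all. All 1749 exonic bases of Rsc1a1 are shared with Ddi2 on the same strand. Reads from them can be set aside as ambiguous, so the lack of counts does not show absence of expression.

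The level of the neighbours differed between single libraries, in some of them together with the rest of chromosome 4. For each library the deviation of each well-expressed gene from its own median over the 16 libraries was taken on the log2 scale, and the median over genes was compared between stretches. Replicate 1 of ICN p53 ko deltaPOZ Lck stood at 0.67 for the neighbours, beside 0.45 for the windows of equal width on both sides, 0.02 for the rest of chromosome 4 and -0.01 for other autosomes. It was the highest of the 6 libraries of its background for 16 of 31 neighbours, and the lowest for 0. Within chromosome 4 that library stood at 0.42 from 120 Mb onward and at -0.18 below 100 Mb, so levels were higher over the distal chromosome and not over the proximal one.

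In noICN p53 ko mice replicate 1 of Miz1 wt stood at 0.72 for the neighbours, beside 0.81 for the adjoining windows, 0.69 for the rest of chromosome 4 and 0.01 for the other autosomes pooled. Single autosomes moved as far in that library, with chromosome 15 at 0.76, chromosome 16 at 0.42 and chromosome 2 at 0.34, and chromosome 4 was 2nd of 19 by size of deviation. In the other 3 noICN libraries chromosome 4 ranked 6 to 10 of 19, and the most deviating autosomes there were chromosome 14 at 0.61, chromosome 19 at -0.72 and chromosome 15 at 0.64. The other Miz1 wt mouse stood at 0.16 for the neighbours and 0.17 for the rest of the chromosome. The deltaPOZ Vav mice of that background stood at -0.04 and 0.48 for the neighbours, and at 0.19 and 0.39 for the rest of chromosome 4. In this background mice of both Miz1 states stood above 0 over the rest of the chromosome, to unequal degrees. All 6 ICN p53 wt libraries stood below 0 for the neighbours, between -0.25 and -0.01, and for the rest of chromosome 4, between -0.20 and -0.08. The number of chromosome copies was not measured, and its part in these levels was not tested.

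**Figure D3:**
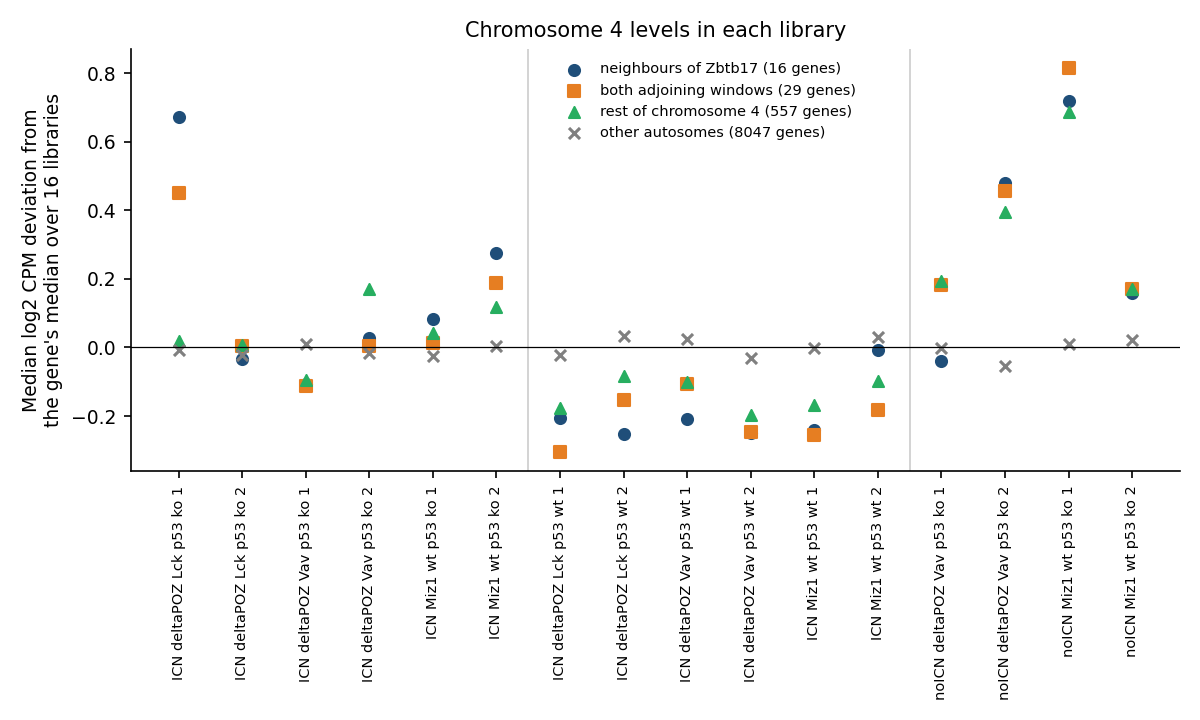
Median log2 deviation (y axis) of 4 sets of genes in each of 16 libraries (x axis): 16 neighbours of Zbtb17, 29 genes of both adjoining windows, 557 genes of the rest of chromosome 4 and 8047 genes of other autosomes. The neighbours reach 0.67 in ICN p53 ko deltaPOZ Lck replicate 1 and 0.72 in noICN p53 ko Miz1 wt replicate 1, while other autosomes pooled stay near 0, single ones among them reaching 0.76 in that Miz1 wt mouse.

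These library levels bear on the Miz1 medians. Without Miz1 wt replicate 1 the noICN median of the neighbours was 0.27, and without deltaPOZ Vav replicate 2 it was -0.51, in place of -0.11. Macrophage and dendritic cell markers summed to 1383 CPM in replicate 1 of ICN p53 ko deltaPOZ Lck and to 1005 CPM in its replicate, against 249 to 304 CPM in the Miz1 wt mice of that background. The neutrophil sum was 8963 and 6397 CPM in those Lck mice, 541 and 1549 CPM in deltaPOZ Vav mice, and 3697 and 49.6 CPM in Miz1 wt mice. For the neighbours these Lck mice stood at 0.67 and -0.03. The part of these cells in the neighbours' levels was not tested.

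The deltaPOZ mice with the suffix Lck were set against those with Vav, since all carry the altered Miz1. By edgeR 0 of 31 neighbours were called, beside 0% of all genes, and 3 had an unadjusted p under 0.05, beside 3.15% of all genes. These were Padi1 at 2.21 (SE 0.94), Padi4 at 1.07 (SE 0.46) and Necap2 at 0.39 (SE 0.18), each with an adjusted p of 0.9997. The median log2 difference, Lck over Vav, was 0.25, with 24 of 31 positive, beside 0.01 over all genes and 0.05 over the rest of chromosome 4. In the adjoining window at lower coordinates it was 0.14, with 23 of 37 genes positive. In that at higher coordinates it was 0.30, with 7 of 9 positive. The median of the neighbours was thus farther from 0 between deltaPOZ groups than between deltaPOZ and Miz1 wt mice. Without replicate 1 of ICN p53 ko deltaPOZ Lck, the ICN library with the highest neighbours, it was 0.01.

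Between p53 ko and p53 wt among ICN mice the neighbours had mostly positive differences. The median log2 difference, p53 ko over p53 wt, was 0.33 with 25 of 31 positive, beside 0.22 over the rest of chromosome 4 and 0.00 over all genes. With each library scaled to the adjoining windows instead of the whole genome, the median was -0.0038, and without replicate 1 of ICN p53 ko deltaPOZ Lck it was 0.16. By edgeR 0 of 31 were called, beside 0.195% of all genes, and 9 had an unadjusted p under 0.05, which was 29.03% of the 31 beside 15.5% of all genes. That share was 27.03% in the adjoining window at lower coordinates, 33.33% in that at higher coordinates and 22.48% over the rest of chromosome 4. The neighbours were thus not set apart from their chromosome. DESeq2 called 6 of the 27 neighbours to which it gave an adjusted p, or 22.2%, beside 6.73% of all genes. Its share over the rest of chromosome 4 was not counted. The 6 were Crocc, Padi2, Efhd2, Sdhb, Necap2 and Padi4, all higher in p53 ko mice.

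Crocc, which encodes the ciliary rootlet protein rootletin, had the lowest p of these. It had 32.8, 19, 18.7, 18.7, 16.9 and 26.2 CPM in p53 ko mice, against 9.84, 15.3, 13.1, 13.2, 10.1 and 12.9 CPM in p53 wt mice. The groups did not overlap, and the log2 difference was 0.82 (SE 0.21, edgeR adjusted p = 0.116, DESeq2 adjusted p = 0.00561). The share of all genes that separate by p53 was not counted, so separation does not set Crocc or the genes below apart. Sdhb had 175 to 279 CPM in the 6 p53 ko mice, against 127 to 157 CPM in the 6 p53 wt mice, again without overlap. Its log2 difference was 0.59 (SE 0.16, edgeR adjusted p = 0.135). Padi2 had 8.91 to 25.5 CPM in p53 ko mice, against 3.13 to 8.65 CPM in p53 wt mice, with a narrow gap. Its log2 difference was 1.27 (SE 0.34, edgeR adjusted p = 0.131). Efhd2 separated too, with 55.4 to 113.4 CPM in p53 ko mice, against 50.5 to 54.7 CPM in p53 wt mice. Padi6 had the opposite sign at -1.30 (SE 0.47, adjusted p = 0.216), and without ICN p53 ko deltaPOZ Lck replicate 1 it was called at -2.32 (adjusted p = 0.0250). The difference of Spen was -0.01 (SE 0.22).

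Between ICN and noICN leukaemias among p53 ko mice, in Miz1 wt and deltaPOZ Vav mice, 4 of 31 neighbours were called by edgeR, where 24% of all genes were, and 7 by DESeq2, where 30.5% were. By edgeR Padi2, Padi3 and Rsg1 fell with ICN and Agmat rose. The median log2 difference, ICN over noICN, was -0.40, beside -0.32 over the rest of chromosome 4 and -0.02 over all genes, and it was 0.0038 with each library scaled to the adjoining windows. Zbtb17 fell as well, by 0.86 on the log2 scale (SE 0.21, adjusted p = 0.0125). This comparison and that of p53 share the ICN p53 ko mice.

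The peptidylarginine deiminases convert arginine in proteins to citrulline, and their 5 genes lie side by side in the window. Padi3, known from hair follicles and skin, had 0.382 and 0.877 CPM in ICN deltaPOZ Vav and 0.923 and 0.556 CPM in ICN Miz1 wt mice, against 7.97 and 47.6 CPM in noICN deltaPOZ Vav and 75.1 and 8.37 CPM in noICN Miz1 wt mice. The groups did not overlap, and the log2 difference was -5.64 (SE 0.84, edgeR adjusted p = 0.00108). Padi2, expressed in many tissues including blood cells, had 8.91 and 14.2 CPM in ICN deltaPOZ Vav and 25.5 and 13.5 CPM in ICN Miz1 wt mice, against 40.9 and 92.7 CPM in noICN deltaPOZ Vav and 96.3 and 39.9 CPM in noICN Miz1 wt mice. Those groups did not overlap either, with a log2 difference of -2.17 (SE 0.43, edgeR adjusted p = 0.00493). The share of all genes that separate between these ICN and noICN mice was not counted, and edgeR called 24% of all genes. The higher levels stood in the libraries whose neutrophil sums were at or under 1.44 CPM. In noICN mice the levels of Padi2 and Padi3 split the replicates of each group, being higher in 1 Miz1 wt and 1 deltaPOZ Vav mouse, the same mice in which the whole set of neighbours stood highest.

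The other deiminases were not called. Padi4, which acts on histones in neutrophils, had a log2 difference of -1.002 (SE 0.46, edgeR adjusted p = 0.133), and Padi1, of skin, had -1.80 (SE 0.89, adjusted p = 0.163). Padi6, of the oocyte, had 1.66 (SE 0.59, adjusted p = 0.0606). Padi4 was highest in replicate 1 of ICN p53 ko deltaPOZ Lck, at 28.4 CPM, where the neutrophil sum was highest too, at 8963 CPM. The next highest level was 23.3 CPM in replicate 1 of noICN p53 ko Miz1 wt, where the neutrophil sum was 0.600 CPM, so high levels of Padi4 stood in libraries with both high and low neutrophil sums.

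**Figure D4:**
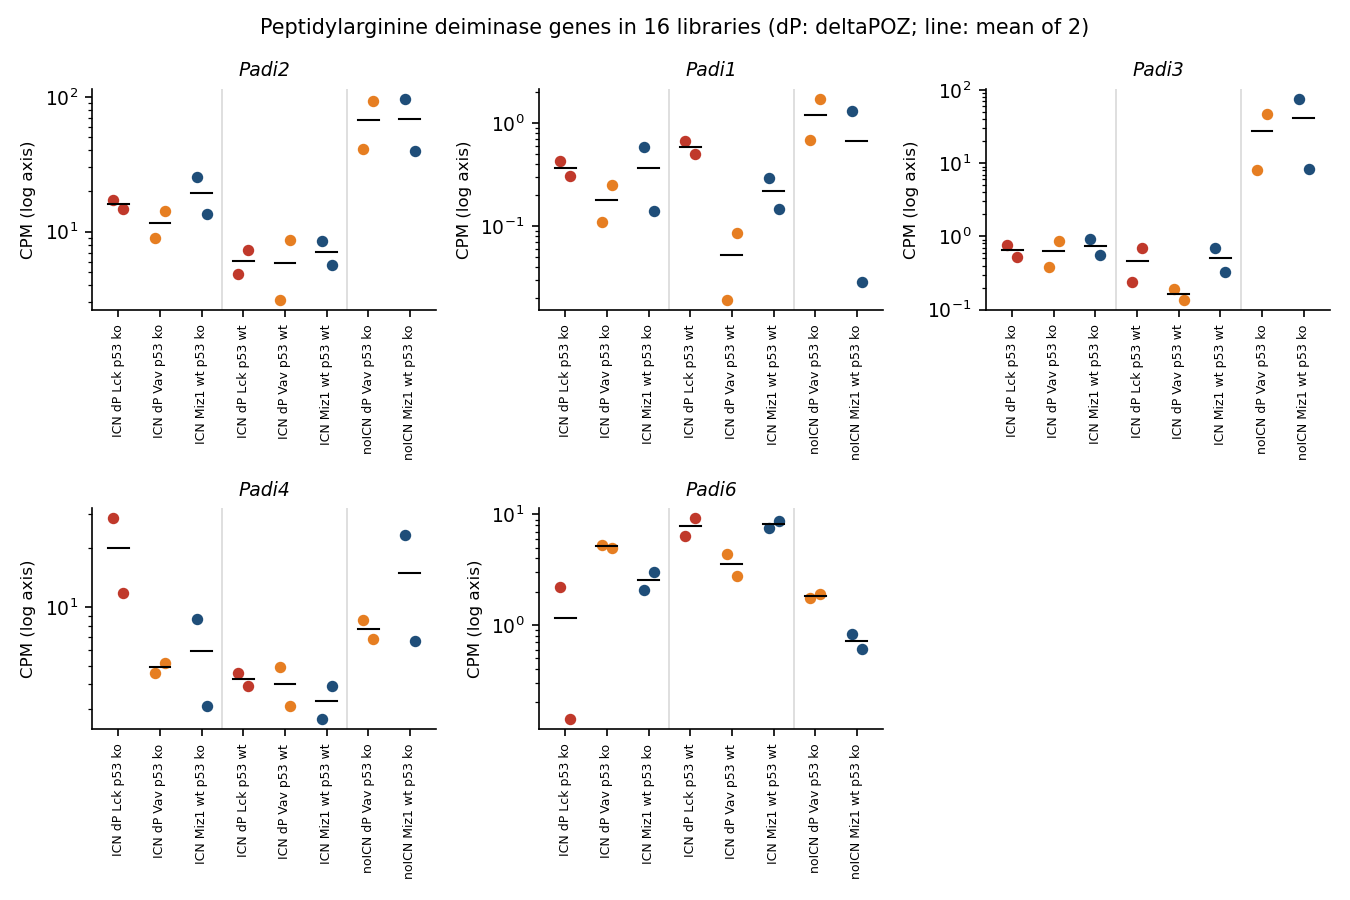
CPM on a log axis (y axis) of the 5 peptidylarginine deiminase genes in 16 libraries by group (x axis); points are mice, lines the mean of 2, red deltaPOZ Lck, orange deltaPOZ Vav and blue Miz1 wt. Padi2 and Padi3 lie lower in all ICN mice than in the 4 noICN mice, and deltaPOZ and Miz1 wt mice overlap there.

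Rsg1 had 1.15 and 0.960 CPM in ICN deltaPOZ Vav and 0.224 and 1.09 CPM in ICN Miz1 wt mice, against 1.44 and 3.16 CPM in noICN deltaPOZ Vav and 2.35 and 1.78 CPM in noICN Miz1 wt mice. The difference was -1.38 on the log2 scale (SE 0.46, edgeR adjusted p = 0.0499), at the edge of the threshold. It was called in 2 of 16 fits that left out 1 library each, those without noICN deltaPOZ Vav replicate 1 and without ICN p53 ko Miz1 wt replicate 2. Agmat, which encodes an agmatinase-like enzyme, had 36 counts over the 4 ICN libraries, against 1 count over the 4 noICN libraries. The ratio of these, per count sequenced, was 39.9 with an exact interval from 6.73 to 1621 that covers counting error only. The fitted change had an edgeR adjusted p of 0.0185, and Agmat reached at most 0.357 CPM in any library. The call of Agmat was lost without noICN Miz1 wt replicate 2, without ICN p53 ko Miz1 wt replicate 2 and without ICN p53 ko deltaPOZ Vav replicate 2.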

How the data were processed

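The deposited values were raw counts of reads per gene, 1 table per mouse with 41214 Ensembl rows, made by the authors. Per the submitters' processing notes HTSeq, DESeq, SAMtools and TopHat2 2.0.10 were used, with GRCm38 (mm10) as build, in no stated role or order. No source gives the annotation release or the strand setting. Reads not aligned uniquely took 45.8% to 63.7% of each table's total, reads in no gene 14.2% to 21.5% and ambiguous reads 0.138% to 0.331%, and these rows were left out.

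GENCODE M21 named 40340 of the identifiers and gave positions and biotypes, and 874 had no match. Counts were fitted over 17470 genes kept by filterByExpr, with TMM scaling, in 8 groups with edgeR 4.0.16 in R 4.3.3, by the quasi-likelihood test with Benjamini-Hochberg adjustment over all genes, and the steps were tested on simulated data. DESeq2 1.42.0 was an alternative. Changes between Miz1 states were averaged over Lck and Vav groups and, with equal weight, over backgrounds. Named genes were those within 250 kb of Zbtb17, those with an unadjusted p under 0.05 for Miz1 status, the 5 with the highest level per length and up to 3 of each role list; others named were chosen after their values were seen, and some results are not reported here. The neighbours and the role lists were chosen with earlier results of these data known.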

Additional observations from a re-analysis of the deposited data

Results flagged for a closer look

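The 54 sets examined each held the 4 deltaPOZ mice of an ICN background, for a gene or the neighbours' median. In 2 of them a mouse lay far from the others by Dixon's gap test at the 95% level. Chance alone flags about 1 in 20 sets. Both were values of ICN p53 ko deltaPOZ Lck replicate 1 among the 4 deltaPOZ mice of its background. Atp13a2 had 139.3 CPM there, against 73.2 to 79.3 CPM in the other 3, with a gap ratio of 0.908. Crocc, the rootletin gene, had 32.8 CPM there, against 18.7 to 19 CPM in the other 3, with a ratio of 0.978. The same mouse had the highest level of its background for 12 of the 16 well-expressed neighbours.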

How the results depend on the processing

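With each single library left out, 0 neighbours were called for Miz1 status in the average and in each background. The calls between ICN and noICN mice then numbered 2 to 6, where 13.6% to 25.2% of all genes were called, with 2 without ICN p53 ko deltaPOZ Vav replicate 2, and those between p53 ko and p53 wt 0 to 1. With 1 library left out the filter on low counts kept 32 to 35 neighbours, in place of 31. Slc25a34, which is not among the 31, was called between ICN and noICN mice in some of these fits. In these fits few genes of any kind were called for Miz1 status or between p53 states. The counts of 0 therefore do not set the neighbours apart. The medians ranged from -0.23 (without noICN deltaPOZ Vav replicate 2) to 0.07 (without noICN Miz1 wt replicate 1) in the Miz1 average, from -0.51 to 0.27 in noICN mice, and from -0.65 to -0.10 between ICN and noICN, the last without noICN deltaPOZ Vav replicate 2. Without the filter on low counts 1 neighbour was called for Miz1 status in ICN p53 ko mice (Arhgef10l, -0.98), 2 in noICN mice (Kazn and Igsf21), 1 between Lck and Vav (Arhgef10l), 6 between p53 states and 8 between ICN and noICN, which was 2.22%, 4.44%, 2.22%, 13.3% and 17.8% of the 45 then tested, beside 1.54%, 2.48%, 0.92%, 5.28% and 17.2% of all genes. DESeq2 called 6 of 27 and 7 of 31 in these last comparisons, or 22.2% and 22.6%, beside 6.73% and 30.5% of all genes. With offsets chosen after seeing the data, the median between ICN and noICN was -0.076 scaled to chromosome 4 and 0.0038 scaled to the adjoining windows, where 10, or 32.3% of the 31, were called beside 23.6% of all genes, and the p53 median was -0.0038. The averaged change turned sign for Plekhm2 with RLE factors (0.0001), DESeq2 (0.0006) and the offsets (0.10 and 0.094), Sdhb without a filter (-0.0034), Tmem82 and Pax7 with the offsets (0.031 and 0.061 to chromosome 4, 0.033 and 0.055 to the windows), and Fbxo42 (0.029), Spen (0.12), Tmem82 (0.11), Szrd1 (0.17) and Aldh4a1 (0.25) with B cell and neutrophil scores as covariates. The causes were not tested. Leaving out single libraries also turned the sign of Agmat (-0.16 to 1.07), Aldh4a1 (-0.27 to 0.11), Arhgef10l (-0.76 to 0.88), Efhd2 (-0.044 to 0.090), Epha2 (-0.62 to 0.17), Fblim1 (-0.61 to 0.31), Kazn (-1.07 to 1.63), Padi3 (-1.15 to 0.21), Padi4 (-0.17 to 0.43), Pax7 (-0.82 to 1.93), Plekhm2 (-0.19 to 0.30), Rcc2 (-0.033 to 0.26), Rsg1 (-0.21 to 0.56), Sdhb (-0.10 to 0.13) and Tmem82 (-0.16 to 0.21). No named neighbour passed in the averaged contrast under any setting run, with a lowest adjusted p of 0.197. No paired analysis was possible because the labels give no replicate numbers that groups share. With 2 mice a group, within-background changes near 2-fold were within the error for 3 to 5 of the 16 well-expressed neighbours.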
